A study of Mus musculus with 45 samples.

Results

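The genes described here are those that mark the granules of Paneth cells: every gene with a symbol that begins with Defa and a digit (α-defensins), together with Lyz1, Itln1, Ang4, Mmp7 and Pla2g2a. Of the 36172 genes with at least 1 read in the 45 libraries, 27 fitted this rule, 22 α-defensin genes and 5 others. More than 5 reads in at least 6 libraries were found for 24 of them, 19 α-defensins and all 5 others, which were therefore among the 14020 genes tested. Defa28 (44.6 reads in 13 libraries), Defa27 (8 reads in 6 libraries) and Defa25 (3 reads in 1 library) did not pass, and no test was made for them.

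The libraries were made from tuft cells, the rare chemosensory cells of the gut lining, sorted from the small intestine of single male C57BL/6J mice and sequenced in bulk. The study's methods name the sorted cells as live EpCAM+CD45+ Siglec-F+. They also state that cells carrying CD45 were left out to avoid M cells, so the CD45 gate is unclear. The mice were 5 weeks old on arrival, carried no engineered allele and were housed at thermoneutrality. They received a low-fat reference diet (RFD, 10% fat) or a high fat diet (HFD, 60% fat). The set named STF held 11 RFD and 11 HFD libraries, and the set named LTF held 11 RFD and 12 HFD libraries. The study fed one cohort for a shorter and one for a longer period, but every label gives 9 weeks, so the sets are called STF and LTF here, and duration and set cannot be told apart. The sort enriches tuft cells, and no step of it selects Paneth cells.

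Paneth cells sit at the base of the crypts of Lieberkühn, beside the intestinal stem cells, and release granules of antimicrobial proteins into the crypt lumen. The α-defensins (cryptdins in mice) are short cationic peptides held in shape by disulfide bonds, and they are made as precursors that the matrix metalloproteinase Mmp7 cuts to the active form. Lyz1 is the Paneth cell lysozyme, which cleaves bacterial cell walls. Itln1 is a lectin that binds microbial sugars, Ang4 is a microbicidal ribonuclease, and Pla2g2a is a secreted phospholipase that attacks bacterial membranes. C57BL/6 mice carry a disrupted Pla2g2a, and the annotation lists it as a polymorphic pseudogene.

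The 22 α-defensin genes lay in a single cluster on chromosome 8, between 21025545 and 21735471 (GRCm38, GENCODE M21), a span of 709.9 kb, with 21 of them on the plus strand and Defa29 on the minus strand. Their coding sequences were 276 to 348 bases long. Of the other 5, Itln1 lay at chr1:171518122-171535294, Pla2g2a at chr4:138831857-138835186, Mmp7 at chr9:7692090-7699585, Lyz1 at chr10:117287797-117292868 and Ang4 at chr14:51763878-51773590. Between the coding sequences of the 22 α-defensin genes the median identity over 231 pairs was 83.2% (62.1% to 100%), and 34 pairs were at least 95% identical. The coding sequences were the same in 5 pairs: Defa17 and Defa3, Defa23 and Defa31, Defa20 and Defa32, Defa2 and Defa33, and Defa36 and Defa37.

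The end of the coding sequence, which encodes most of the mature peptide, shows how little separates the genes that took the most reads. The last 90 bases before the stop codon are given from the GENCODE transcripts for the 4 α-defensins with the most reads, with bases that differ from Defa24 in capitals.
Defa24: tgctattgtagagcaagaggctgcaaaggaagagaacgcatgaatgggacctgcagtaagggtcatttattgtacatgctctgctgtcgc
Defa30: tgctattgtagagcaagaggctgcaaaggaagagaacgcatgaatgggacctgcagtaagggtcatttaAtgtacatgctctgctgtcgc
Defa17: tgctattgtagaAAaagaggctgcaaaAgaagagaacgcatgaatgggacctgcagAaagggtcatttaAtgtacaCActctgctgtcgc
Defa23: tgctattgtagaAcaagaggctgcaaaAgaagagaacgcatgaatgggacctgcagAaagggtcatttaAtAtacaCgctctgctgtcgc
Over these 90 bases Defa30 differed from Defa24 at 1 base, Defa23 at 6 and Defa17 at 7. Defa21 and Defa22, a pair of 99.3% identity over the whole coding sequence, are given in the same way, with bases of Defa22 that differ from Defa21 in capitals.
Defa21: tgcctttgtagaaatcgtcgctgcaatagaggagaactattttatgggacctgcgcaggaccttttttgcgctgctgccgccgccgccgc
Defa22: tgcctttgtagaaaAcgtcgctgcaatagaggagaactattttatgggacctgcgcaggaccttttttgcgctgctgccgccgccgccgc
Over these 90 bases Defa22 differed from Defa21 at 1 base.

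**Figure D1:**
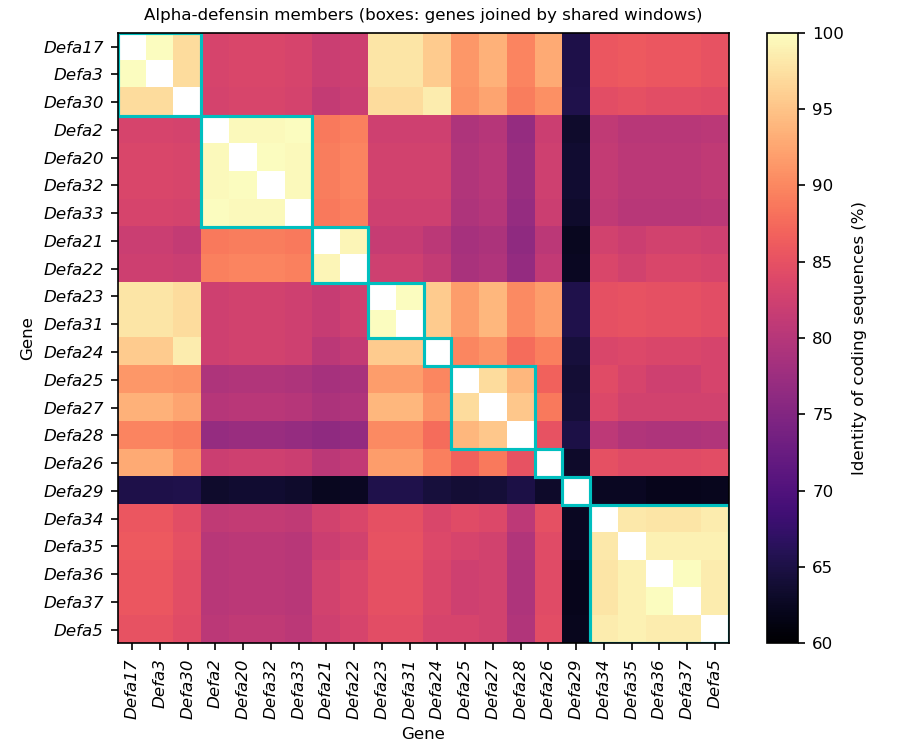
Identity of the coding sequences (%, colour) of each pair of the 22 α-defensin genes, with cyan boxes around genes linked by 100-base stretches of transcript held in common. The boxes are bright (close to 100%), and the rows of Defa29 are the darkest, the closest relative of Defa29 being 65.4% identical.

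These likenesses bear on the counts. RSEM, the counting program, divides a read that matches several genes among them, and 74.0% of the α-defensin counts above 0 were not whole numbers, against 8.79% over all genes and 0% for the other 5 genes. In 12 of the 22 α-defensin genes more than 50% of 100-base stretches of the transcript also occurred in another gene. Defa31, Defa33, Defa37 and Defa2 held no stretch of their own (100% shared), whereas Defa24 shared none. The α-defensin genes were therefore also joined into families by shared stretches: Defa17, Defa3 and Defa30; Defa23 and Defa31; Defa21 and Defa22; Defa2, Defa20, Defa32 and Defa33; Defa34, Defa35, Defa36, Defa37 and Defa5; and Defa25, Defa27 and Defa28; with Defa24, Defa26 and Defa29 alone. A split of reads within a family is uncertain, and the sum over a family is less affected by it. Among the other 5 genes, Lyz1 shared 2.06% of its stretches with Lyz2 and Mmp7 2.58% with AV064505.

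Promoter sequence was at hand for 12 of the α-defensin genes (8 distinct sequences, RefSeq, GRCm38.p6). CTTTGAT, a form of the site bound by TCF transcription factors in Wnt signalling, was searched on both strands in the 250 bases before the start, and lay in 12 of 12, against 3.21% of the 32851 promoters in the table. It occurred at least 2 times in 8 of the 12. TATAAA lay in 11 of 12 (12.4% of all promoters), CAGGTG in 1 of 12 (17.2%) and CTTTGAA in none (4.46%). Near-copies of one promoter are not independent, and a match is a description of letters and not a bound site. The promoters of Defa21, Defa23 and Defa30 are shown because they come from 3 separate families, with 2 motifs in capitals. One is TATAAA. The other reads ATCAAAG here, because it lies on the opposite strand.
Defa21, chr8:21025295-21025544, plus strand: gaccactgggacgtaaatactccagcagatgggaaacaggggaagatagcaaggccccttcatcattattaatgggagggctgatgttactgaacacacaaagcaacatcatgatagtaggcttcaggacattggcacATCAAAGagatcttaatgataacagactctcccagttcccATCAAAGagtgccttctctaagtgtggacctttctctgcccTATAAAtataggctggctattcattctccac
Defa23, chr8:21054790-21055039, plus strand: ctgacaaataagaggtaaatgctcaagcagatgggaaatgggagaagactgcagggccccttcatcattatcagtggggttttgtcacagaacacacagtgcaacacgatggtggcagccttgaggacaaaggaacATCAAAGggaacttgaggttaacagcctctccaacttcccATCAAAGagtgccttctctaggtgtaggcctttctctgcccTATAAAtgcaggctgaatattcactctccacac
Defa30, chr8:21134400-21134649, plus strand: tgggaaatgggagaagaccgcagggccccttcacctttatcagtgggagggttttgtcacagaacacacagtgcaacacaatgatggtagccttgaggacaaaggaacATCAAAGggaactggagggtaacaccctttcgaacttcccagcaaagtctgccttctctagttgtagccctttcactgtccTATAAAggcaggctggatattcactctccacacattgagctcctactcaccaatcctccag
Defa21 held the motif 112 and 72 bases before the start and Defa23 held it 114 and 74 bases before it, whereas Defa30 held it once, at 142 bases. Among the other 5 genes, promoters were at hand for Lyz1, Itln1, Mmp7 and Ang4. CTTTGAT was found 0 times in those of Lyz1, Itln1 and Ang4. For Mmp7, the promoter at chr9:7691840-7692089 held it 0 times. The other Mmp7 promoter listed, chr9:7692091-7692340, held it once, 247 bases before its own start. That stretch lies within the Mmp7 gene as annotated (chr9:7692090-7699585) and is not upstream of the gene.

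Between 189338 and 4690207 reads fell on genes in a library. The tuft cell markers Dclk1 and Trpm5 had reads in all 45 libraries, and no pair of libraries held identical counts (990 pairs, highest Pearson r of log2 CPM 0.946). Each library came from 1 mouse, so p-values measure the spread between mice within a diet. The study housed several mice in a cage and ended each period over consecutive days, taking a cage of every group per day. The labels name no cage or day, so the main tests took the mice as independent. In bulk samples, fewer cells of a type and less RNA per cell cannot be told apart.

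The summed reads of the 27 genes took a share of the library that varied over orders of magnitude between mice on the same diet. In the STF set on RFD the share was 0.00683% of the reads on genes in the lowest library (mouse 1), 0.334% in the median and 13.3% in the highest (mouse 20), and mouse 10 followed with 9.56%. On HFD it was 0.0149% in the lowest (mouse 64), 3.72% in the median and 44.4% in the highest (mouse 80), followed by mouse 70 with 29.5% and mouse 8 with 22.1%. The groups overlapped over nearly their whole range, and the 3 highest HFD libraries lay above all RFD libraries. In the LTF set on RFD the lowest, median and highest shares were 0.0100% (mouse 3), 0.172% and 6.35% (mouse 1). On HFD they were 0.00355% (mouse 80), 1.55% and 17.6% (mouse 7), and mouse 6 followed with 7.35%. Here too the groups overlapped, and the lowest of all 45 libraries was on HFD. Counting error was small against these differences: the 95% Wilson interval was 44.3% to 44.4% for STF mouse 80 and 0.00267% to 0.00470% for LTF mouse 80, and such intervals cover counting error only.

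**Figure D2:**
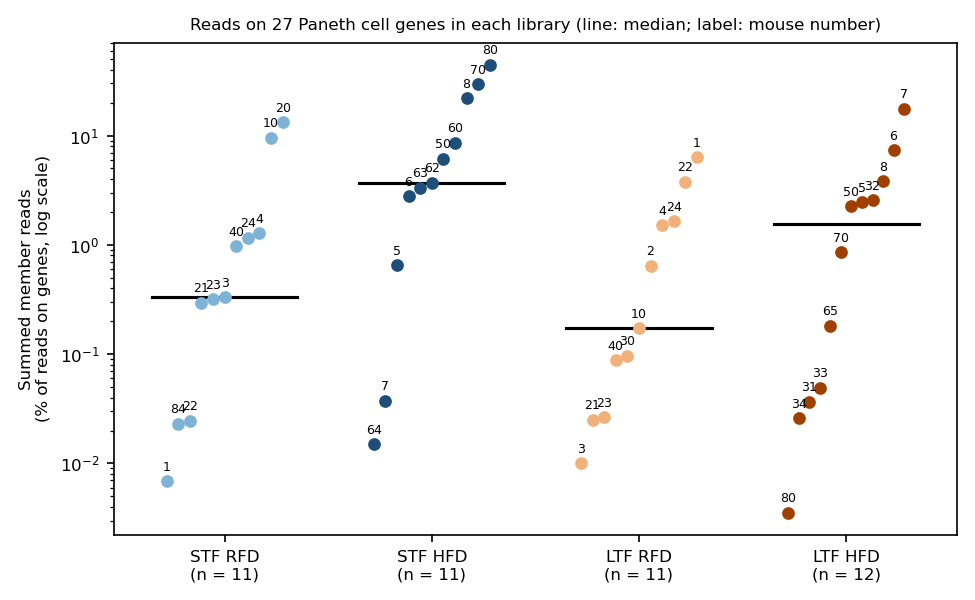
Summed reads of the 27 genes as a percentage of the reads on genes (log scale) in each library, by set and diet, with the mouse number beside each point and a line at the median. The medians were 0.334% and 3.72% in the STF set and 0.172% and 1.55% in the LTF set on RFD and HFD, and the points of both diets cover the same range apart from the highest HFD libraries.

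A share above 1% was found in 4 of 11 STF RFD, 8 of 11 STF HFD, 4 of 11 LTF RFD and 6 of 12 LTF HFD libraries, and a share under 0.1% in 3, 2, 5 and 4 of them. The library of STF mouse 80 alone held 18.4% of all reads on these genes and the top 5 libraries held 67.6%. With the α-defensins alone the medians were 0.213% (STF RFD), 1.89% (STF HFD), 0.0878% (LTF RFD) and 0.828% (LTF HFD). AY036118 and Lars2, which together took 2.53% to 16.7% of a library, were left out of the denominator in an alternative, and the medians were then 0.377%, 4.02%, 0.192% and 1.67%.

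The mouse numbers in the titles form 3 series (1 to 8, the multiples of 10, and the remaining numbers from 21 to 64), each with both diets in both sets. STF RFD mouse 84 and LTF HFD mouse 65 belong to no series and were left out of the values by series. What a series stands for is not stated. In the STF set the median share was higher on HFD within each series. It was 0.334% on RFD and 1.72% on HFD for the numbers 1 to 8 (3 and 4 mice), 9.56% and 19.1% for the multiples of 10 (3 and 4 mice), and 0.308% and 3.33% for the others (4 and 3 mice). Among STF libraries the multiples of 10 stood high on both diets. In the LTF set the RFD and HFD medians were 1.08% and 5.58% for the numbers 1 to 8 (4 and 4 mice) and 0.0969% and 0.853% for the multiples of 10 (3 and 3 mice). For the others the order was the opposite, 0.834% on RFD and 0.0430% on HFD (4 and 4 mice).

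Levels of single genes are given as normalised CPM, the usual depth-scaled count, here adjusted with edgeR's TMM factors, which ran from 0.547 to 1.25 in the STF set and from 0.758 to 1.22 in the LTF set. Lyz1 took the most reads of the 27 genes, 1086807 over all libraries or 27.4% of their reads. Its lowest, median and highest CPM were 11.1, 502 and 32801 in STF RFD and 33.7, 10862 and 202504 in STF HFD. In LTF they were 15.3, 648 and 15753 on RFD and 3.37, 4618 and 54905 on HFD. In STF, 9 of 11 HFD libraries lay above the RFD median and 3 above the highest RFD library, and in LTF 7 of 12 and 2 did.

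Defa24 took 1006435 reads (25.4%). It shares no 100-base stretch with another gene, but its counts were not whole in 28 of 45 libraries (62.2%), so some of its reads were divided as well. Its lowest, median and highest CPM were 18.6, 1041 and 41260 in STF RFD and 37.0, 7073 and 203619 in STF HFD. In LTF they were 8.98, 456 and 13701 on RFD and 16.8, 3430 and 45294 on HFD. The groups overlapped as for Lyz1, with 3 of 11 STF HFD and 2 of 12 LTF HFD libraries above the highest RFD library.

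The α-defensins that followed were Defa30 (310613 reads), Defa17 (253001), Defa23 (184244), Defa37 (93739), Defa31 (92986) and Defa3 (73804). The median CPM of Defa30 was 378 and 2384 on RFD and HFD in STF and 75.2 and 666 in LTF. For Defa23 the medians were 239 and 1104 in STF and 46.4 and 587 in LTF. In STF mouse 80 these 6 genes stood between 16860 CPM (Defa3) and 74032 CPM (Defa30), above every other library. Summed over families, so that divided reads count once, Defa17, Defa3 and Defa30 had a median of 762 CPM on RFD and 4706 CPM on HFD in STF, and of 157 CPM and 1668 CPM in LTF.

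Some α-defensins with fewer reads were near 0 in most STF RFD libraries. The family of Defa2, Defa20, Defa32 and Defa33 had a lowest, median and highest sum of 0.589, 3.24 and 2381 CPM in STF RFD and of 5.77, 471 and 21272 CPM in STF HFD. In LTF the sums were 0, 66.4 and 847 CPM on RFD and 0, 179 and 2376 CPM on HFD. RSEM assigned most reads of this family to Defa20 (55076 reads), and gave Defa33 (22681 reads) reads in 5 of 11 STF RFD and 10 of 11 STF HFD libraries. That split is uncertain, because Defa20 shared 99.7% and Defa33 100% of their stretches with other genes of the family. Defa21 and Defa22 together had a median of 18.3 CPM in STF RFD and 497 CPM in STF HFD, while in LTF the median was 128 CPM on RFD and 106 CPM on HFD. A count of 0 allows up to 3 reads, which is 0.640 to 15.8 CPM before scaling, depending on the library.

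Defa5, Defa34, Defa35, Defa36 and Defa37 together had medians of 171 and 1345 CPM in STF and 105 and 444 CPM in LTF on RFD and HFD. Defa36 was found in 15 libraries only, although its coding sequence equals that of Defa37, which had reads in 43. Defa35 (362 reads in 21 libraries) and Defa2 (242 reads in 15 libraries) were the rarest genes tested, and both had a median of 0 CPM in STF RFD. Defa29 (24855 reads) had medians of 29.1 and 243 CPM in STF and 37.3 and 37.1 CPM in LTF. Defa26 (5611 reads) had medians of 4.52 and 26.4 CPM in STF and 3.34 and 16.8 CPM in LTF.

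The lectin Itln1 took 547354 reads (13.8%). Its lowest, median and highest CPM were 18.6, 869 and 21689 in STF RFD and 17.8, 5546 and 96423 in STF HFD, and in LTF 44.1, 368 and 6861 on RFD and 2.02, 1913 and 20673 on HFD. Ang4 (79911 reads) had medians of 111 and 716 CPM in STF and 52.8 and 278 CPM in LTF on RFD and HFD. Mmp7, the protease that matures the α-defensins, had 22571 reads and medians of 30.7 and 205 CPM in STF and 56.3 and 77.1 CPM in LTF. Pla2g2a was the lowest of the 5 with 3046 reads, and its medians were 6.37 and 17.5 CPM in STF and 1.67 and 10.1 CPM in LTF. For each of the 24 genes the libraries of both diets overlapped in both sets. The share of all genes with such an overlap is not given here, so this describes the 24 only.

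**Figure D3:**
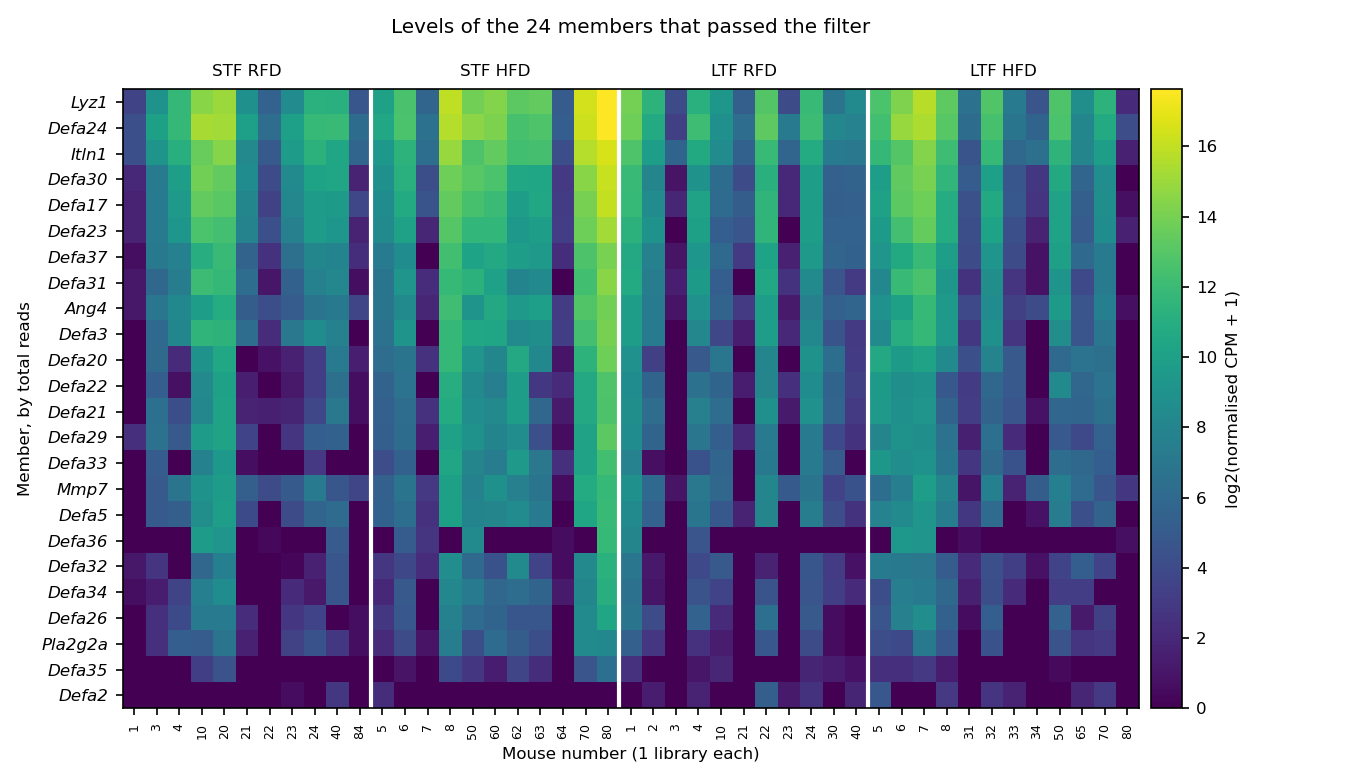
Levels of the 24 genes tested, as log2(normalised CPM + 1) by colour, in each library (columns, mouse number) by set and diet, with genes in rows by total reads. Libraries differ as whole columns: STF HFD mice 8, 70 and 80, STF RFD mice 10 and 20 and LTF HFD mice 6 and 7 are bright over nearly all rows, whereas Defa36 and Defa2 are dark in most columns.

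Per length of transcript (TPM), Defa24 had the highest level, with a median of 18045 TPM over the 45 libraries, and it was above Defa30 in 45 of 45. Defa30 and Defa17 followed with 4347 and 4340 TPM and were not separated, Defa30 being the higher in 29 libraries and Defa17 in 16. Defa23 had a median of 3119 TPM and was above Lyz1 (2001 TPM) in 33 of 45 libraries. Lyz1 was above Defa31 (1455 TPM) in 26 of 45, so that these neighbours were not separated either. Below them came Defa37 (1338 TPM), Defa3 (1099 TPM), Itln1 (1060 TPM) and Defa20 (534 TPM). Of the remaining granule genes, Ang4 had 302 TPM, Mmp7 92.3 TPM and Pla2g2a 15.7 TPM. TPM corrects for transcript length, and the reference transcripts had 419 bases for Defa24, 1263 for Lyz1 and 1141 for Itln1. The order of the α-defensins against these longer genes rests on that correction, and Lyz1 took more reads than Defa24. Where α-defensins share stretches, divided reads leave their order uncertain too.

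The first comparison asked whether the diets differed in the STF set. The estimated difference was towards HFD for every one of the 24 genes, but no gene passed the test (edgeR's quasi-likelihood test, adjusted by Benjamini and Hochberg's method over 14020 genes, threshold 0.1), where 3.32% of all genes did. Log2 fold changes (HFD over RFD) ran from 0.97 to 3.68 with a median of 2.29, against a median of -0.05 over all genes, and 22 of the 24 were above 2, as were 1.14% of all genes. Fold changes above 0 were found for 47.3% of all genes. Since the 24 genes moved together in the same libraries, these counts are not counts of separate observations. Standard errors ran from 1.05 to 1.88 with a median of 1.35, and the 95% interval lay above 0 for 4 genes. An unadjusted p under 0.05 was found for those 4 (Ang4, Defa32, Defa20 and Defa33) and for 18.0% of all genes. Other fits gave other numbers. There were 14 with DESeq2's test (2920 of all 14020 genes), 13 with the number series as a term (2360) and 10 with limma (1729). There were 12 without edgeR's robust prior (2548), 8 in 1 fit over all libraries (2746) and 2 without the libraries under 600000 reads (2382). With DESeq2 size factors (2523) and without a filter (5239 of 36153) the number stayed at 4. Leaving out single libraries, it ran from 0 (HFD mouse 80) to 16 (RFD mouse 20).

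Ang4 had a log2 fold change of 3.13 (SE 1.25) and Defa32 one of 3.68 (SE 1.47), with adjusted p of 0.190 and 0.194 in edgeR's quasi-likelihood test. The reads of Defa32 were divided with Defa20, Defa2 and Defa33, and the sum of the 4 differed by 3.33 on the log2 scale (SE 1.54, adjusted p = 0.262 in edgeR). For Lyz1 the value was 2.67 (SE 1.36, 95% interval -0.16 to 5.51, adjusted p = 0.310 in edgeR). For Itln1 it was 2.35 (SE 1.25), for Mmp7 2.12 (SE 1.13), for Defa24 2.09 (SE 1.28) and for Pla2g2a 2.06 (SE 1.05), with adjusted p from 0.314 to 0.409 in edgeR. The intervals of these 5 genes included 0. Summed over families, the α-defensins also gave no call, with adjusted p from 0.262 to 0.416 in edgeR.

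The count of calls turned on the test and on single mice. DESeq2 called 5 of the 24 genes higher on HFD, Ang4 (log2 fold change 3.07, adjusted p = 0.0378), Defa32, Defa20, Lyz1 and Defa21, where it called 10.9% of all genes. On log2(TPM + 1), limma called 0, where it called 9 of all 14020 genes. Without RFD mouse 20, edgeR called 7 (Ang4, Defa20, Defa21, Defa22, Defa32, Defa33 and Defa35), where it called 11.9% of all genes, and the median log2 fold change became 3.42. Without HFD mouse 64, the lowest HFD library, edgeR called Ang4 alone, where it called 14.2% of all genes. Without HFD mouse 80 it called 0, where it called 69 of all 14020 genes, and the median was 1.28. With the number series as a term, edgeR called Defa32 (4.97, adjusted p = 0.0883) and Defa35 (3.40, adjusted p = 0.0928), where 3.25% of all genes were called.

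**Figure D4:**
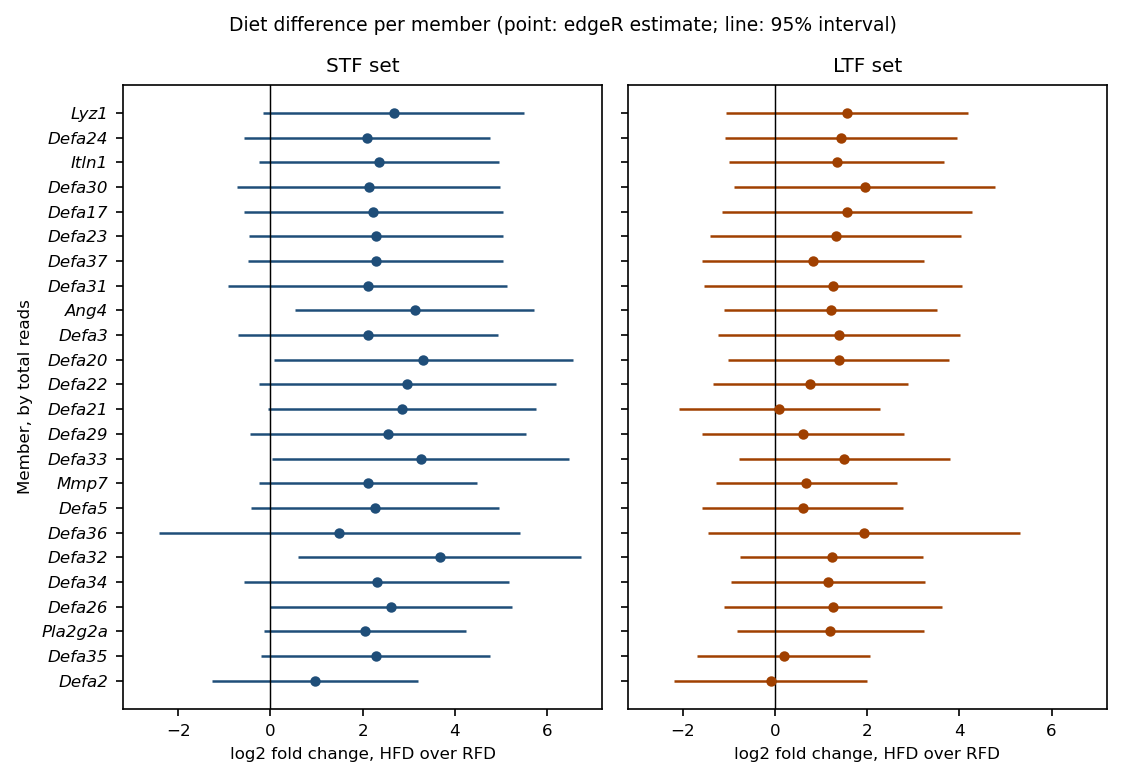
Log2 fold change (HFD over RFD) of each of the 24 genes tested in the STF set (left) and the LTF set (right), with the edgeR estimate as a point and its 95% interval as a line, genes in order of total reads. In STF all 24 points lie above 0 and 4 intervals exclude it, and in LTF 23 points lie above 0 and no interval excludes it.

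In the LTF set, 0 of the 24 genes passed the same test, where 0.792% of all genes did, and none had an unadjusted p under 0.05, where 10.3% of all genes had. DESeq2 (2.50% of all genes called), limma (51 of all 14020 genes) and edgeR with the number series as a term (1.32%) called 0 as well. Log2 fold changes were above 0 for 23 of the 24 (47.9% of all genes), with a median of 1.24, none above 2 (0.835% of all genes) and a range from -0.10 (Defa2) to 1.94 (Defa30). Lyz1 had 1.56 (SE 1.26), Defa24 1.43 (SE 1.21), Itln1 1.33 (SE 1.12), Ang4 1.21 (SE 1.11) and Mmp7 0.68 (SE 0.94). Adjusted p ran from 0.671 to 0.986 in edgeR's quasi-likelihood test. For Lyz1 the 95% interval of the log2 fold change was -1.06 to 4.18, so a difference in either direction lay within it. Without HFD mouse 7 the median log2 fold change of the 24 genes was 0.47, and without RFD mouse 1 it was 1.90. In both cases 0 of the 24 were called, where 67 and 667 of all 14020 genes were.

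The difference between the sets was tested as the interaction of diet and set over all 45 libraries. No gene of the 14020 passed (0%), DESeq2 called 0 as well, and 451 genes (3.22%) had an unadjusted p under 0.05, of which none was among the 24. The estimates (LTF minus STF) had a median of -1.27, with 1 of 24 above 0, as were 54.3% of all genes, and standard errors from 1.42 to 2.39. Defa21 had the lowest estimate, -2.73 (SE 1.69), and Lyz1 had -1.08 (SE 1.77), and the adjusted p of all 24 genes was 0.9999 in edgeR's quasi-likelihood test. The diet difference was thus not shown to differ between STF and LTF.

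The members varied together from library to library. Over the 45 libraries Spearman's rho of log2 CPM with Lyz1 was 0.98 for Defa24, Defa30, Defa17, Defa37, Defa3, Itln1 and Ang4, 0.93 for Mmp7 and 0.94 for Pla2g2a. Among the 276 pairs of the 24 genes the median rho was 0.88, and the highest, 0.99, was that of Defa17 and Defa23. Pairs with a rare gene were the lowest, down to -0.30 for Defa36 and Defa2, and among the 17 genes with reads in at least 36 libraries the lowest was 0.74 (Mmp7 and Defa32). All these points share libraries and their depth, and the α-defensins share reads, so the values are a description.

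Against this common variation the makeup of the α-defensin reads was compared in the 31 libraries with at least 1000 of them. Defa24 held 36.8% to 53.4% (median 47.0%) and the family of Defa17, Defa3 and Defa30 13.2% to 35.4% (median 27.5%). Defa23 with Defa31 held 5.85% to 19.0% (median 12.3%), and the family of Defa34 held 2.94% to 10.3% (median 5.84%). The spread of the smaller families was wider, 0.0275% to 17.6% for the Defa2 family and 0.180% to 13.3% for Defa21 with Defa22. In STF RFD the Defa2 family held a median of 0.575% (8 libraries), against 3.18% in STF HFD (9 libraries), and the medians of both LTF groups (7 libraries each) lay between these values. The ranges overlapped, 0.0275% to 5.02% in STF RFD and 1.22% to 16.9% in STF HFD. Lyz1 had a median of 0.283 reads per α-defensin read in STF RFD and 0.560 in STF HFD, and 0.384 and 0.523 in LTF, with ranges that overlapped between the diets.

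**Figure D5:**
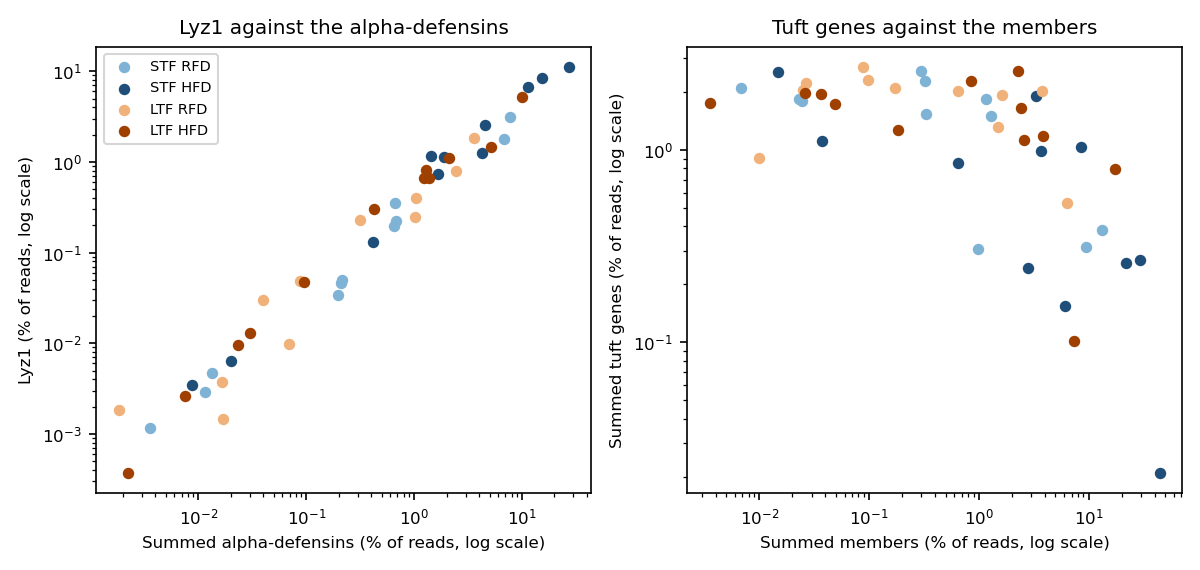
Left, Lyz1 against the summed α-defensins, and right, the summed 18 tuft cell genes against the summed 27 Paneth cell genes, all as a percentage of the reads on genes on log scales, with 1 point for each library coloured by set and diet. Lyz1 follows the α-defensins over the whole range, and the tuft cell genes are lowest (0.0210%) in the library with the highest share of Paneth cell genes (44.4%).

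Tuft cell markers stood lowest in some of the libraries with the most reads on these genes. The sum of 18 tuft cell markers had a lowest, median and highest share of 0.304%, 1.80% and 2.56% in STF RFD and of 0.0210%, 0.852% and 2.54% in STF HFD. In LTF it was 0.532%, 2.02% and 2.68% on RFD and 0.101%, 1.69% and 2.56% on HFD. The lowest tuft shares were those of STF HFD mouse 80 and LTF HFD mouse 6, both among the libraries richest in the Paneth cell genes. Over the 45 libraries rho between the summed tuft markers and the summed 27 genes was -0.63, where both are shares of the same total. Of the 18 tuft markers 1 was higher on HFD in each set and none passed the test in either set, with a median log2 fold change of -0.97 in STF and -0.44 in LTF. Trpm5, the tuft cell cation channel, had -1.14 in STF (adjusted p = 0.335 in edgeR's quasi-likelihood test) and -0.37 in LTF, and the kinase Dclk1 had -0.55 and 0.00. The part of tuft cell purity in the diet differences given above was not tested.

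Another 44 genes known from Paneth cells were listed beside the 27, of which 37 had reads and 32 were tested. In STF 26 of the 32 were higher on HFD, with a median log2 fold change of 1.25, and 2 passed the test. Kcnn4, a potassium channel, rose by 0.98 on the log2 scale (SE 0.30, adjusted p = 0.0963) and Reg3b, a bactericidal lectin that enterocytes also make, fell by 1.66 (SE 0.44, adjusted p = 0.0662, both edgeR's quasi-likelihood test). In LTF 23 of the 32 were higher on HFD, the median was 0.56 and none passed. Over the 45 libraries rho between the sum of this list and the sum of the 27 genes was 0.59. Lyz2, the paralog of Lyz1 that macrophages express, was at 0 reads in 12 of 45 libraries, and had a log2 fold change of 0.26 in STF and 2.71 in LTF, without a call. The LTF value went with a single library, HFD mouse 31, in which Lyz2 had 977 CPM while each other HFD library was under 10 CPM, with medians of 0.824 CPM on RFD and 0.841 CPM on HFD. That library also held the highest macrophage share of the LTF set, 0.273%. Among macrophage markers (9 tested) none passed in either set, and rho of their sum with the 27 genes was -0.07.

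The genes outside the 27 whose levels followed the summed α-defensins most closely, out of 13996, were Gm14851 (rho 0.99), Gm7861 (0.99), AY761184 (0.98), Gm15293 (0.96), Gm15292 (0.95) and Clps (0.95), then Pnliprp2 (0.91), Rnase1 (0.90), Ccl6 (0.88) and Nupr1 (0.86), all over 45 libraries. The median over all these genes was -0.03. Gm14851 shares transcript stretches with Defa29, Gm15292 with Defa26, and Gm15293 with Defa34 and Defa5, so part of their reads may be divided between them. Clps encodes colipase and Pnliprp2 a lipase of the pancreatic family, and both were on the list of further Paneth cell genes. Their log2 fold changes in STF were 3.21 (SE 1.12) and 3.03 (SE 1.06), with adjusted p of 0.143 and 0.145 in edgeR's quasi-likelihood test.

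Markers of the stem cells that neighbour Paneth cells in the crypt also moved with the 27 genes, with rho 0.77 between the sums. In STF 9 of 10 stem cell markers were higher on HFD, and Olfm4 (2.05), Smoc2 (1.71) and Gkn3 (2.65, log2 fold changes) passed the test (adjusted p 0.0848, 0.0662 and 0.0732 in edgeR's quasi-likelihood test), where none of 10 did in LTF, and no gene passed the test of the difference between the sets. Goblet cell markers, from another secretory lineage, gave no call (8 of 9 higher on HFD in STF and 9 of 9 in LTF, rho of the sums 0.40). Agr2 and Tff3 stood both on this list and on that of the further Paneth cell genes. The part of stem and goblet cells in the differences of the Paneth cell genes was not tested.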

How the data were processed

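RNA from sorted tuft cells of 45 mice was amplified with Smart-seq2, made into Nextera XT libraries and sequenced in pairs on a NovaSeq. Per the submitters' processing notes and the study's methods, the authors trimmed reads with cutadapt 1.15, aligned them with STAR 2.6.0 and quantified genes with RSEM on GRCm38. The deposited tables hold expected counts (RSEM estimates, not normalised) and TPM values (scaled for length and depth, by the authors). Deposited FPKM values were not used. The authors' later steps against reads of contaminating cells were left out. They weighed counts with deconvolved proportions of cell types, and removed markers of other cells and genes judged absent from tuft cells. A further 24 columns without a labelled sample were not used.

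Expected counts were rounded. Of 47729 genes, 47224 had a GENCODE M21 symbol and 19 with a doubled symbol were removed. Genes with more than 5 reads in at least 6 of 45 libraries (14020) were tested within each set with edgeR 4.0.16 (TMM, quasi-likelihood test with robust priors, R 4.3.3) and Benjamini-Hochberg adjustment, threshold 0.1. DESeq2 1.42.0, limma 3.58.1 on log2(TPM + 1), other filters and normalisation, the number series as a term, and leaving out each library were alternatives. The robust prior and the summed families were settled after the data were seen. The fits were tested on simulated counts in which genes varied independently and with less spread than the Paneth cell genes. That test does not show how the fits perform for genes such as these. The named genes are all members, listed markers called in either set, Dclk1, Trpm5 and Lyz2, and the 10 genes with the highest rho. Coding sequences and promoters came from GENCODE and RefSeq with pandas 2.3.3 and scipy 1.17.1. Members and lists were chosen with earlier results of these data known. RefSeq held promoters for 12 α-defensin and 4 other members.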

Additional observations from a re-analysis of the deposited data

How the results depend on the processing

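No paired analysis was possible because the diets share no mouse number within a set. The number of genes called in STF was 0 and became 5 with DESeq2's test and 2 with the number series as a term, and ran from 0 to 7 when single libraries were left out (7 without RFD mouse 20, 1 without HFD mouse 64). It was 0 with DESeq2 size factors, without a filter on low counts, without the 2 libraries under 600000 reads, in 1 fit over all libraries, without the robust prior, with limma, and with families summed. In LTF it was 0 under each of these alternatives and each left-out library. The interaction gave 0 members under each alternative run. Without a filter on low counts, 65 of all 36153 genes were called for it, and under each other alternative 0 of 14020 were. The median log2 fold change of the 24 genes ran from 1.28 to 3.42 in STF and from 0.47 to 1.90 in LTF when single libraries were left out.

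Over all 14020 genes the calls in STF and LTF were 466 and 111, and moved to 1534 and 351 with DESeq2's test, 9 and 51 with limma, 684 and 63 in 1 fit over all libraries, 65 and 65 at adjusted p under 0.05, and 290 in STF without the low libraries. Without a filter they were 1504 and 429 of 36153 genes. The log2 fold change changed sign for these results: Defa2 in LTF (0.0187 without a filter, 0.55 with the number series, 0.12 with limma) and in STF (-0.18 with the series, -0.29 with limma), Defa21 in LTF (-0.61 with the series), Defa35 in LTF (-0.80 with the series, -0.44 with limma) and the interaction of Defa36 (-6.22 with DESeq2). Leaving out single libraries, it ran from -1.13 to 1.76 for Defa2 in LTF and -1.91 to 1.77 in STF, -0.38 to 0.42 for Defa21 in LTF, -0.37 to 0.79 for Defa35 in LTF, -2.17 to 2.44 for Defa36 in STF and -0.14 to 1.32 for Mmp7 in LTF. The causes of these sign changes were not tested. Of 528 such values in STF 518 kept direction and side of the threshold, and of 552 in LTF 533 did.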

Other observations

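Beside the crypt markers, the sum of 6 M cell genes had rho -0.62 with the sum of the Paneth cell genes over the 45 libraries. Among these 6, Gp2, which the study used as its specific M cell marker, had reads in 8 libraries only. Spib had reads in 45 and Marcksl1 in 44, so in most libraries the sum held no reads of Gp2. The sum was lowest (0.00419%) in STF HFD mouse 80, as was the tuft sum. Whether it reflects M cells was not tested. The sums of 12 enterocyte genes and 12 intraepithelial T cell genes had rho -0.25 each with the sum of the Paneth cell genes. Enteroendocrine genes stood apart from the Paneth cell genes, with rho -0.05 between the sums. In LTF 5 of 14 enteroendocrine genes (Gcg, Pyy, Nts, Cck and Ghrl) fell on HFD in edgeR's quasi-likelihood test, where no Paneth cell gene of either list passed. Nts had medians of 29.3 CPM on RFD and 0 CPM on HFD and Cck 37.8 and 0 CPM. The RFD medians of Gcg, Pyy and Ghrl were only 1.58, 0.824 and 1.11 CPM against 0 CPM on HFD, within the range that a count of 0 allows (0.640 to 15.8 CPM depending on the library). Of 12 enterocyte genes, Rbp2, the retinol-binding protein, rose on HFD in both sets (log2 fold changes 1.32 in STF and 1.58 in LTF), Mttp rose (1.04) and Slc5a1, the glucose transporter, fell by 1.36 in LTF. Among 8 tested T cell genes, Lck alone was called, and it fell by 2.97 in STF. Its medians were 5.27 CPM on RFD and 0 CPM on HFD, also within the range that a count of 0 allows. M cell genes gave no call (4 tested).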
